A study of Rattus norvegicus with 6 samples.

Results

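Cd5l, a protein that macrophages secrete, and 8 receptors by which macrophages bind and take up material were followed in rat bone marrow stromal cells on a tantalum-modified and on a plain titanium surface. The genes were Cd5l, Cd163, Mrc1, Msr1, Marco, Timd4, Stab1, Folr2 and Vsig4, and their members were every non-control probe that the array design names for them, 12 of 45598 probes. The choice of genes was made with results of this contrast known. The values of the Ta and Ti arrays therefore chose the members, and their differences are given as a description, without a test. Of the 9 genes, 7 passed the filter for the test over all genes (a spot well above background on 3 or more of the 6 arrays), among 19584 genes that did. Marco and Timd4 did not pass it and are described probe by probe.

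The cells came from the marrow of rat tibias and were grown for 7 days on titanium carrying a tantalum modification (Ta, n = 3 arrays) or on simple titanium without it (Ti, n = 3 arrays). Strain and age of the animals are not given in the sources used here, and the series' design text describes the 3 cultures of a group as independent experiments. Total RNA was labelled with Cy3 and hybridised to one-colour Agilent arrays, so each array is 1 culture. Values below are log2 scaled signals, the log2 of the processed spot intensity brought to a common 75th percentile. A level of one probe cannot be set against that of another. Differences are Ta minus Ti, and their errors are the moderated standard errors (SE) of limma over all genes.

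Macrophages of tissues and marrow clear dying cells, modified lipoproteins, haemoglobin complexes and microbes through receptors of several unrelated families, which are grouped under the name scavenger receptors. Cd5l, also called AIM, is a soluble protein of the scavenger receptor cysteine-rich family and a known target of the liver X receptors, while Cd163 is a membrane receptor of the same family. Adherent cultures of marrow cells are known to carry macrophages beside the stromal cells, and expression of most of these genes is taken as a mark of resident or alternatively activated macrophages.

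Probe sequences are shown first, since a probe value reports on the stretch of transcript it matches. For Msr1 the dimmer probe is printed, which is not the one behind its main value. The 4 probes below hold an open reading frame and stand for a receptor with no direction (Cd163), one whose probes differed (Msr1) and the pair that was lower on every Ta array and detected on all 6 arrays (Stab1 and Mrc1). All are in lower case, read 5′ to 3′, and carry no capitals because no part of them was singled out. Positions are those in the file headers for the rn4 build (RGSC 3.4). The Stab1 probe lies at chr16:6567756-6568150 on the minus strand, the Mrc1 probe at chr17:88489156-88491763 on the plus strand, the Cd163 probe at chr4:160423704-160423763 on the plus strand and this Msr1 probe (A_44_P928825) at chr16:56293586-56293645 on the plus strand. Each probe has 60 bases, so the Stab1 interval of 395 bases and the Mrc1 interval of 2608 bases cover more genome than the probe itself.
Stab1: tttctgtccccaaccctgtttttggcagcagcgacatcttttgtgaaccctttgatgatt
Mrc1: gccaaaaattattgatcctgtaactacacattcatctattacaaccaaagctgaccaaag
Cd163: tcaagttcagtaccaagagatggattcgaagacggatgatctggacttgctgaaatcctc
Msr1: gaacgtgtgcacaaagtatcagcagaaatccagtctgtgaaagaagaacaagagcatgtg
The Cd5l probe, at chr2:179394215-179394274 on the plus strand of the same build, has 0 frames without a stop and is not printed.

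Promoter sequence of 8 of the 9 genes, all but Msr1, was found by symbol in RefSeq's annotation of GRCr8. The 250 bases before the start site are shown for Cd5l, Stab1 and Mrc1, because these 3 genes were lower on every Ta array and their windows hold the letters GAGGAA, or TTCCTC where the match is on the other strand, the core of sites bound by the macrophage factor PU.1. Capitals mark these letters and, for Cd5l, also a palindromic MAF recognition element, the half-site TGCTGA followed after any 2 bases by its reverse complement. The windows are chr2:175088665-175088914 on the plus strand for Cd5l, chr16:6367360-6367609 on the minus strand for Stab1 and chr17:82157475-82157724 on the plus strand for Mrc1, each printed in the direction of its gene.
Cd5l: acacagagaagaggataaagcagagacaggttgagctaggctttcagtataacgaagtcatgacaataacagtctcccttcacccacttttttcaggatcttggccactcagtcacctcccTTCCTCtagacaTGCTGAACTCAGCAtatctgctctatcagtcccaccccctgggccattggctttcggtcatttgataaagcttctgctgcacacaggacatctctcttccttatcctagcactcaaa
Stab1: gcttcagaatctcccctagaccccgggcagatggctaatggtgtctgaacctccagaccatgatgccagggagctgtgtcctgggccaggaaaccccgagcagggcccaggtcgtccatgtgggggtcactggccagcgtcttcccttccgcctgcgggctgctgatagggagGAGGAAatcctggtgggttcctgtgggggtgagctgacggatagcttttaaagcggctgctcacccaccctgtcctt
Mrc1: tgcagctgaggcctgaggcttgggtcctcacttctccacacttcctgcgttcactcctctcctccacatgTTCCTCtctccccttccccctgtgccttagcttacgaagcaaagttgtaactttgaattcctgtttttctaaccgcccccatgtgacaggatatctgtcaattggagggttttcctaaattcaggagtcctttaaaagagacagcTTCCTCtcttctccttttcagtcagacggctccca

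The motifs were chosen after these sequences were read, and all counts are for both strands of 300-base windows, from 250 bases before to 50 after a start site. GAGGAA lay in 4 of the 8 windows (Cd5l, Marco, Stab1 and Mrc1), against 27.5% of all 27457 promoters. The Vsig4 window lacked it, although Vsig4 was also lower on every Ta array, and Marco was on no array well above background. No link between these letters and the differences was tested. In Cd5l the match began at -129, in Stab1 at -77 and in Mrc1 at -180 and -35, where -1 is the base before the start site. A further match in Stab1 began at position 6, after the part shown. The palindrome lay in the Cd5l window alone among the 8, as TGCTGAACTCAGCA from -117, and in 4 of all 27457 promoters (0.0146%). It overlaps its own half-site TGCTGA, which lay in 5 of the 8 windows (Cd5l, Folr2, Timd4, Stab1 and Vsig4) against 18.6% of all. The half-site AGGTCA of nuclear receptors such as the liver X receptors lay in 1 of the 8 (Timd4) against 15.7%, and DR4, its direct repeat with 4 bases between, in 0 of the 8 and in 1 promoter in all. The C/EBP letters TTGCNNCAA lay in 0 of the 8 and 2.11% of all promoters, and the AP-1 letters TGANTCA in 0 of the 8 and 7.33%. The MAF element with a 1-base spacer (0.00728% of all) and an element of the ISRE type (3.77%) also lay in 0 of the 8. These matches describe letters only, and binding was not measured.

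The 6 arrays shared 1 slide. Its row 1 held the Ta arrays together with Ti replicate 1, and its row 2 held the other Ti arrays. Of the non-control spots, 62.7% to 65.9% were well above background. The lowest spot that was well above background, called the floor here, lay between 3.37 and 3.82 on the log2 scale of an array. Over all genes 813 of 19584 (4.15%) passed limma at an adjusted p of 0.05. On Ta 523 of them (2.67%) were the higher and 290 (1.48%) the lower. This number changed widely when single arrays were left out, which also leaves fewer arrays in the fit. When Ta replicate 2 was left out, 0 genes passed (3816 unadjusted at 0.05), and the same held for Ta replicate 3 (3902 unadjusted), Ti replicate 1 (4470) and Ti replicate 3 (3815). Leaving out Ta replicate 1 gave 3213 genes, and leaving out Ti replicate 2 gave 1563. A fit with the slide row as a block gave 0 genes (3831 unadjusted).

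The secreted protein Cd5l had the largest difference of the 9 genes. Its log2 scaled signal was 5.59, 3.73 and 2.56 on Ta replicates 1, 2 and 3, and 8.25, 7.60 and 8.68 on Ti replicates 1, 2 and 3. Every Ta array lay below every Ti array, and the gap between the highest Ta and the lowest Ti array was 2.01. The mean was 3.96 ± 1.53 (SD, n = 3) on Ta and 8.18 ± 0.54 (SD, n = 3) on Ti, a difference of -4.22 ± 0.75 (SE), which is 18.6-fold. Before scaling, the processed intensities were 46.2, 12.8 and 5.29 on Ta against 353, 193 and 426 on Ti, and the scanner software's own error of the lowest was 2.76. The Ta 3 spot was not well above background, and with it raised to the floor, an alternative added after the data were seen, the difference was -3.86. With normexp background correction, whose offset of 50 exceeds the Ta signals, it was -1.94. Probes spotted 10 times on each array had a median SD between their spots of 0.38 at the mean brightness of Cd5l on Ta and of 0.08 at that on Ti. In the fit over all genes 1 of the 7 tested members, Cd5l, lay past the threshold, as did 4.15% of all genes. The values that chose the gene are the same, so this count describes the fit and supports nothing. Cd5l was not past the threshold when 1 of 4 arrays was left out (Ta 2, Ta 3, Ti 1 or Ti 3), with no filter on dim probes, or with the slide row as a block, settings in which no gene was, nor with the replicate number as a block, in which 8 other genes were. Its difference kept its sign and ran from -5.03 to -3.52 when single arrays were left out.

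**Figure D1:**
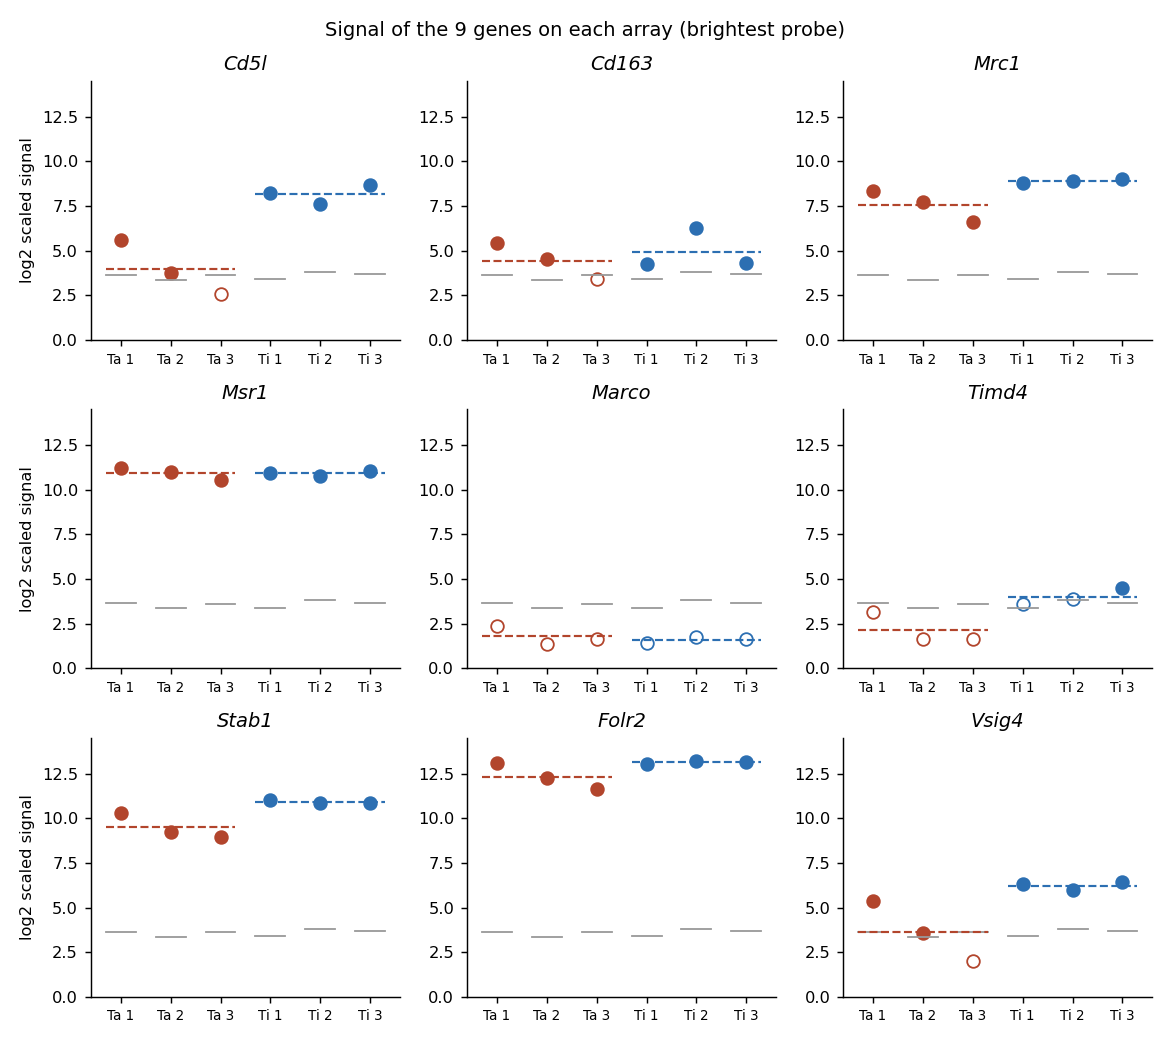
Log2 scaled signal of the brightest probe of each of the 9 genes on the 3 Ta arrays (red) and 3 Ti arrays (blue). Filled points were well above background and open points were not, dashed lines are group means and short grey lines the floor of each array. Cd5l lies between 2.56 and 5.59 on Ta and between 7.60 and 8.68 on Ti, while the Msr1 points of both groups overlap. Heights cannot be compared between panels.

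Cd163, the membrane relative of Cd5l that takes up haemoglobin bound to haptoglobin, did not separate the groups. Its signal was 5.40, 4.53 and 3.39 on Ta and 4.23, 6.29 and 4.29 on Ti. Ti replicate 2 was the highest array and Ta replicate 3, which was not well above background, the lowest, with the others between them. The difference was -0.49 ± 0.72 (SE), and -0.41 with the dim spot at the floor. It was 0.03 without Ta replicate 3, 0.18 without Ti replicate 2, 0.03 with array weights and 0.21 with slide row as a block, so these data give Cd163 no direction.

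The class A scavenger receptors Msr1 and Marco, trimeric receptors with a collagen-like stalk that bind modified lipoproteins and bacteria, showed no separation either. The brighter Msr1 probe (A_44_P1113884) read 11.22, 11.02 and 10.56 on Ta and 10.97, 10.77 and 11.03 on Ti. The groups overlapped, with a mean of 10.93 ± 0.34 (SD, n = 3) on Ta and 10.92 ± 0.13 (SD, n = 3) on Ti. The difference was 0.01 ± 0.18 (SE), and its sign turned with median scaling (-0.03). The other Msr1 probe, whose sequence is given above, read 10.14, 9.92 and 9.37 on Ta and 10.21, 10.10 and 10.17 on Ti, a difference of -0.35. Its groups overlapped by 0.04, since Ta replicate 1 lay above Ti replicate 2. Marco was on no array well above background (1.37 to 2.40 on Ta and 1.41 to 1.75 on Ti), so no fold is given.

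The mannose receptor Mrc1, also known as Cd206, is a C-type lectin that internalises glycoproteins and is a common marker of alternatively activated macrophages. It read 8.36, 7.74 and 6.60 on Ta and 8.78, 8.90 and 9.02 on Ti. Every Ta array lay below every Ti array, by at least 0.42, and Ta replicate 3 lay far below the other two. The difference was -1.33 ± 0.42 (SE), 2.52-fold lower on Ta, between means of 7.57 ± 0.89 and 8.90 ± 0.12 (SD, n = 3 each). It was -0.85 without Ta replicate 3 and -1.73 without Ta replicate 1.

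Stab1, or stabilin-1, a large receptor that carries acetylated lipoproteins and SPARC into endosomes, was lower on every Ta array as well. The signals were 10.27, 9.26 and 8.93 on Ta and 11.01, 10.88 and 10.84 on Ti. The closest arrays of the groups, Ta replicate 1 and Ti replicate 3, lay 0.57 apart. The difference was -1.42 ± 0.33 (SE), 2.68-fold lower on Ta, between means of 9.49 ± 0.70 and 10.91 ± 0.09 (SD, n = 3 each). It ran from -1.82 to -1.14 when single arrays were left out.

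Folr2, the folate receptor beta of myeloid cells, read 13.09, 12.23 and 11.66 on Ta and 13.02, 13.22 and 13.16 on Ti. Ta replicate 1 lay within the Ti arrays and the other Ta arrays below all of them. The difference was -0.81 ± 0.34 (SE), from -1.19 without Ta replicate 1 to -0.47 without Ta replicate 3.

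Vsig4, a complement receptor of the immunoglobulin superfamily that binds C3 fragments and is found on tissue-resident macrophages, had the largest difference among the receptors that passed the filter. Its signals were 5.34, 3.59 and 2.03 on Ta and 6.32, 5.96 and 6.41 on Ti. Every Ta array lay below every Ti array, with a gap of 0.63, and Ta replicate 3 was not well above background. The difference was -2.58 ± 0.78 (SE), -2.05 with that spot at the floor and -0.77 with normexp background correction. It ran from -3.42 to -1.77 when single arrays were left out. The Ta arrays spread over 3.30 and the Ti arrays over 0.44.

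Timd4, or TIM-4, a receptor for the phosphatidylserine exposed on dying cells, was near the limit of detection, so no fold is given. Its brightest probe (A_44_P1095629) read 3.15, 1.64 and 1.66 on Ta and 3.59, 3.91 and 4.48 on Ti. The scanner software called it well above background on Ti replicate 3 alone, 1 of 3 Ti arrays, and on 0 of the Ta arrays. A probe detected on 2 of 3 Ti arrays (A_64_P027288) read 2.49, 1.22 and 1.49 on Ta and 4.53, 2.62 and 3.98 on Ti. Probes spotted 10 times had a median SD between their spots of 0.66 at the brightness of this probe and of 0.60 at that of the brightest Timd4 probe. The remaining probe (A_44_P398837) was on no array well above background, at 1.23 to 1.49 on Ta and 1.74 to 3.09 on Ti. With all 3 probes, every Ta array read lower than every Ti array, although most of these signals were below the floor.

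**Figure D2:**
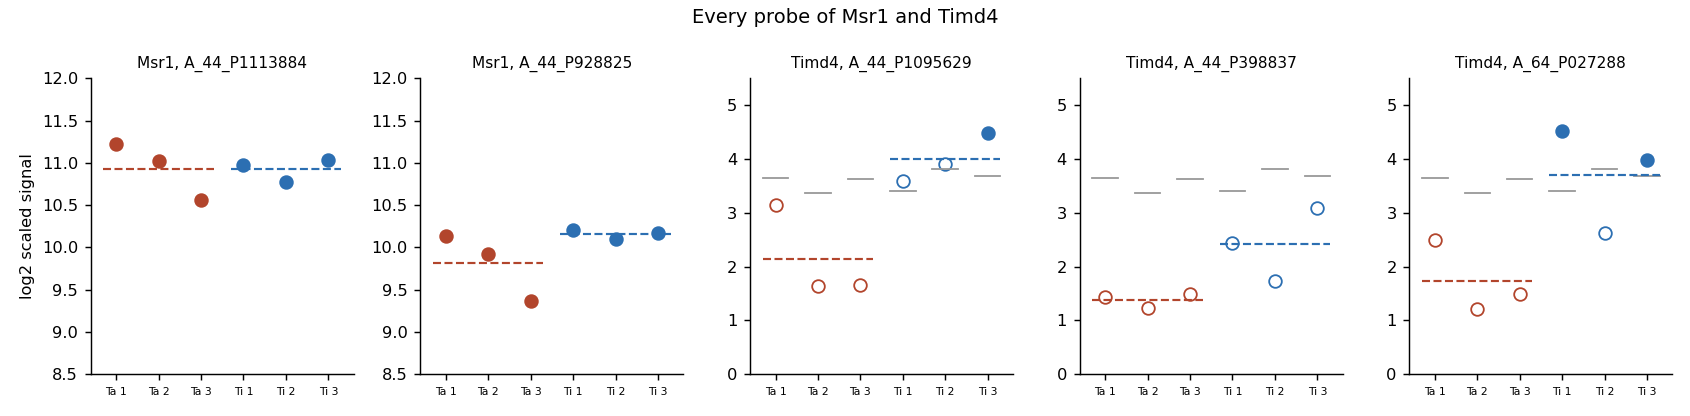
Log2 scaled signal on each array for both Msr1 probes and all 3 Timd4 probes, with Ta in red and Ti in blue. Open points were not well above background, dashed lines are group means and grey lines the floor. The Msr1 probes differ by 0.01 and -0.35 between groups, and no Timd4 point is filled on Ta.

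Set side by side, 7 of the 9 genes had a negative difference, and the median of the 9 was -1.33 beside 0.03 over all genes tested. With dim signals raised to the floor the median was -0.81, and with normexp background correction -0.77. Of the 7 tested genes, 4 (Cd5l, Vsig4, Stab1 and Mrc1) had every Ta array below every Ti array, as had 16.4% of all genes tested. A difference of -1 or lower was found in the same 4 genes, beside 2.89% of all genes. Since the genes were chosen on this contrast, nothing is read from these shares.

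The 7 tested genes also shared an arrangement within the Ta group. Ta replicate 1 was the highest and Ta replicate 3 the lowest Ta array in 7 of 7, beside 21.7% of all genes tested. Relative to its own group mean, Cd5l was 1.63 higher on Ta replicate 1 and at -1.40 on Ta replicate 3, and Vsig4 stood at 1.68 and -1.62. Stab1 stood at 0.78 and -0.56, and Msr1 at 0.29 and -0.38. The Ta arrays spread at least 2.5 times as far as the Ti arrays in 6 of the 7 genes, all but Cd163, beside 16.1% of all genes. This was not particular to them among macrophage genes. It was also found in 12 of 22 pan-macrophage markers, 8 of 20 resident and alternatively activated macrophage genes and 8 of 16 inflammatory macrophage genes, all described below. The ratio of the ranges was 2.57 for Msr1, 2.81 for Cd5l and 7.25 to 8.06 for Mrc1, Folr2, Vsig4 and Stab1. The 7 genes were read on the same 3 Ta arrays, so they are not 7 separate observations.

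General macrophage markers were measured beside them, because in bulk RNA fewer macrophages and less RNA of a gene per macrophage cannot be told apart. All 22 pan-macrophage markers were tested and 0 passed in limma, 18 lay below 0, and the median difference was -0.59, with a range from -2.38 (Lyz2) to 0.50 (Cx3cr1). Of the defining ones, Csf1r, the receptor of the macrophage growth factor, differed by -1.24 ± 0.38 (SE), the leukocyte phosphatase Ptprc by -1.09 ± 0.30 and the calcium-binding protein Aif1 by -1.56 ± 0.44. The lysosomal protein Cd68 differed by -0.28 ± 0.19, the adhesion receptor Adgre1 by -0.15 ± 0.27, and the endotoxin co-receptor Cd14 by 0.34 ± 0.14. None of these 6 passed (limma adjusted p from 0.0809 to 0.747). Each of the 6 was well above background on all 6 arrays, so macrophage transcripts were measured on both surfaces in cells that the labels call stromal.

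The mean of the 22 markers was 12.44, 11.93 and 11.38 on Ta replicates 1, 2 and 3, and 12.63, 12.34 and 12.71 on the Ti arrays. It thus showed the same arrangement as the receptors, with Ta replicate 1 close to the Ti arrays and Ta replicate 3 the lowest, and 19 of the 22 markers had Ta replicate 1 highest and Ta replicate 3 lowest. The mean differed by -0.64 between the groups. Cd5l (-4.22) and Vsig4 (-2.58) lay below all 22 markers, Stab1 and Mrc1 below all but 2, Folr2 below all but 7 and Cd163 below all but 11. The place of Vsig4 depends on probe and floor. Other probes of the lowest marker, Lyz2 (-2.38), gave -2.85 to -0.51. With its dim Ta 3 spot at the floor, Vsig4 stood at -2.05, above Lyz2, and Cd5l at -3.86. Msr1, by its brighter probe, lay above 18 of them, and its other probe (-0.35) was not ranked.

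**Figure D3:**
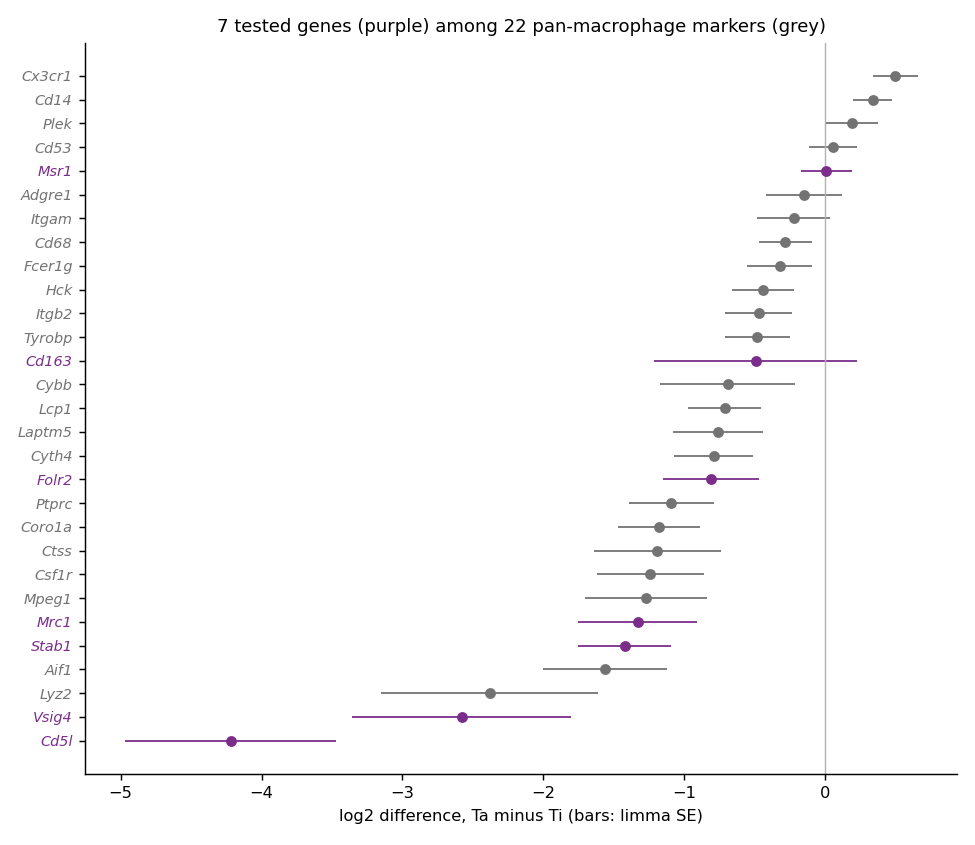
Difference between Ta and Ti on the log2 scale, with bars for the limma SE, for the 7 tested genes (purple) and the 22 pan-macrophage markers (grey), in order of size. Cd5l and Vsig4 stand at the low end, beyond Lyz2 at -2.38, and Msr1, by its brighter probe, stands at 0.01 among the highest markers. Dim spots are drawn as read, and with its dim Ta spot at the floor Vsig4 would stand at -2.05, above Lyz2.

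Subtracting the marker mean of the same array left Cd5l at -2.47, -3.81 and -4.44 on Ta and between -0.35 and 0.35 on Ti, when the Ti mean is set to 0. The Ta arrays remained below the Ti arrays for Cd5l, Vsig4, Stab1 and Mrc1, with the dim Ta 3 spots of Cd5l and Vsig4 as read. The highest Ta and lowest Ti arrays stood at -0.42 and -0.2 for Mrc1, and at -0.52 and -0.22 for Stab1. The share of all genes with such a gap on this scale was not counted, so nothing is read from this separation. The difference beyond the markers was -3.57 for Cd5l, -1.94 for Vsig4, -0.78 for Stab1 and -0.69 for Mrc1. Folr2 stood at -0.16 and Cd163 at 0.15. The brighter Msr1 probe stood at 0.65, with all 3 Ta arrays (0.41, 0.73 and 0.81) above all Ti arrays. The other Msr1 probe, at -0.35 before subtraction, was not set against the markers, so this position holds for 1 probe only. The spread within Ta was smaller on this scale for Stab1 (SD 0.25 beside 0.70) and Mrc1 (0.38 beside 0.89), and it was 1.01 for Cd5l beside 1.53. Within Ti it was larger for Stab1 (SD 0.21 beside 0.09) and Mrc1 (0.21 beside 0.12), and smaller for Cd5l (0.35 beside 0.54). What part macrophage number has in these differences was not tested.

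**Figure D4:**
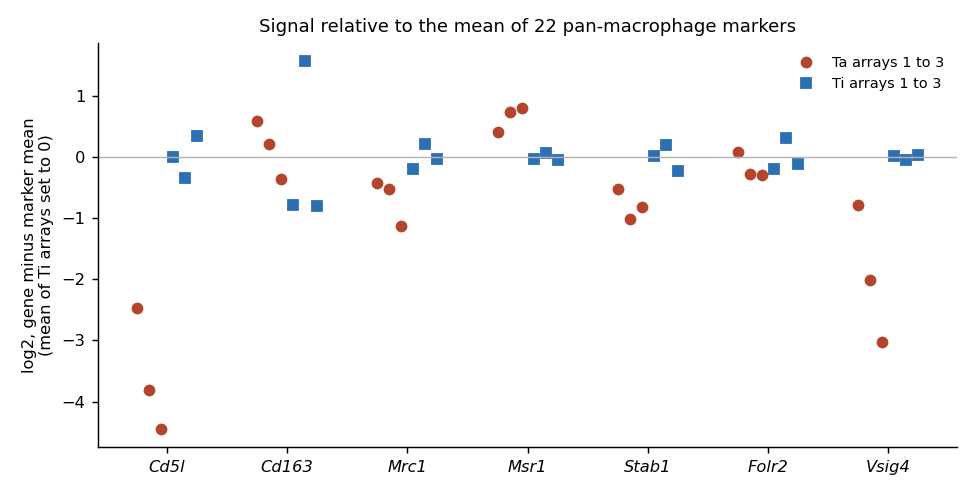
Signal of the 7 tested genes minus the mean of the 22 pan-macrophage markers on the same array, on the log2 scale with the mean of the Ti arrays set to 0 (circles, Ta arrays 1 to 3; squares, Ti arrays 1 to 3). Cd5l lies between -4.44 and -2.47 on Ta, the brighter Msr1 probe between 0.41 and 0.81.

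Genes related to these receptors were taken from 9 lists, chosen with earlier results known but not by how single genes moved, and without the 9 genes themselves. Of the 150 genes tested in them, 14 rose and 7 fell and the others did not pass (14.0% past the test, beside 4.15% of all genes), with a median of -0.02. The adjusted p-values below are from limma over all 19584 genes, and the errors are its SE. As for all genes, the number in these lists was 0 when Ta 2, Ta 3, Ti 1 or Ti 3 was left out and 70 when Ta 1 was.

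Of 21 other scavenger and endocytic receptors, 1 fell, 0 rose and 20 did not pass, with a median of -0.05. The gene that fell was Megf11, a transmembrane protein with EGF-like repeats, at -0.75 ± 0.10 (adjusted p = 0.0396), and its other probe gave -0.39. Of 16 structural relatives of the 9 genes, 1 rose, with a median of -0.07: Havcr2, or TIM-3, a relative of Timd4 that restrains immune cells. It read 8.82, 9.90 and 9.95 on Ta and 8.02, 7.77 and 7.98 on Ti, a rise of 1.63 ± 0.31 (adjusted p = 0.0481), with 2.10 by its other probe. All Ta arrays lay above all Ti arrays, as in 19.5% of all genes tested, and Ta replicate 1 was the closest to them.

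Of 23 genes for the recognition and engulfment of apoptotic cells, 3 fell and 0 rose, with a median of -0.26. Anxa5, which binds phosphatidylserine, fell by 0.75 (SE 0.14, adjusted p = 0.047). The engulfment GTPase regulator Dock1 fell by 0.63 (SE 0.12, adjusted p = 0.0492). The matrix glycoprotein Thbs1, a bridge to dying cells, fell by 0.61 (SE 0.08, adjusted p = 0.0396; its other probe gave -0.35).

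In the list for haemoglobin, haem and iron, the route of Cd163, 3 of 17 genes rose and none fell (0), the median being 0.15. Hpx, the plasma haem carrier haemopexin, read 7.97, 9.26 and 9.58 on Ta and 6.13, 7.04 and 5.90 on Ti, a rise of 2.58 ± 0.49 (adjusted p = 0.0481). Hp, which encodes haptoglobin, the partner of Cd163, rose by 1.31 ± 0.23 (adjusted p = 0.0452), and Hmox1, the haem-degrading enzyme, by 0.87 ± 0.14 (adjusted p = 0.0424). All Ta arrays of the 3 genes lay above all Ti arrays, whereas Cd163 itself had no direction. In the folate list, the route of Folr2, 0 of 14 genes passed, with a median of 0.08.

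Cd5l is a known target of the liver X receptors, and of 16 other targets and components of that pathway 2 fell and 1 rose, with a median of -0.13. Apoc1, an apolipoprotein, read 4.56, 3.79 and 3.53 on Ta and 6.32, 5.90 and 7.09 on Ti, and fell by 2.48 (SE 0.38, adjusted p = 0.0418). Of its Ta spots 2 of 3 exceeded background clearly, and its other probe gave -3.22. Lpl, lipoprotein lipase, fell by 2.46 (SE 0.44, adjusted p = 0.0452), by the same amount on its other probe, and Scd, a fatty acid desaturase, rose by 1.01 ± 0.19 (adjusted p = 0.0481). Stromal and fat cells also make Lpl and Scd.

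None of 21 macrophage transcription factors passed (0 in limma), and their median was -0.44. Named for the motifs above and after their values were seen, Spi1, which encodes PU.1, differed by -0.25 ± 0.18 and Maf by -0.44 ± 0.23, whose other probes gave -0.37 and 0.37. The liver X receptor gene Nr1h3 differed by 0.56 ± 0.11 (adjusted p = 0.0514). For Spi1 and Maf the groups overlapped.

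The list of resident and alternatively activated macrophage genes moved in both directions: of 20 genes, 2 rose while 1 fell, and the median was -0.32. The monocyte chemokine Ccl7 rose by 1.26 ± 0.24 (adjusted p = 0.0486) and the chemokine Pf4 by 0.84 ± 0.16 (adjusted p = 0.0481), and the growth factor Igf1 fell by 1.09 (SE 0.15, adjusted p = 0.0396; its 4 other probes gave -1.34 to -0.42). Stromal cells also make Igf1 and Ccl7.

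Of 16 inflammatory macrophage genes, 7 rose, 0 fell and 9 did not pass, with a median of 1.14. Nos2, the inducible nitric oxide synthase, read 5.69, 8.60 and 8.25 on Ta and was on no Ti array well above background, so it was at least 14.7-fold higher on Ta, the Ta mean being set against the mean floor of the Ti arrays. Acod1, which makes itaconate, was likewise at least 5.49-fold higher, at 5.15, 6.90 and 6.22 on Ta (limma adjusted p = 0.0396 for both, for the difference without the floor). Both genes passed the filter through the Ta arrays alone, so these p-values rest on Ti signals below the floor. Some spots slightly above the floor were also not called well above background, so the bounds are approximate. Il1a rose by 3.03 ± 0.46 (adjusted p = 0.0407), from 6.87, 8.10 and 6.92 on Ti to 10.08, 11.10 and 9.79 on Ta. In the genes of this list Ta replicate 1 was not as a rule the highest array: this held together with Ta replicate 3 lowest in 3 of 16, beside 7 of 7 of the scavenger receptor genes and 21.7% of all genes.

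**Figure D5:**
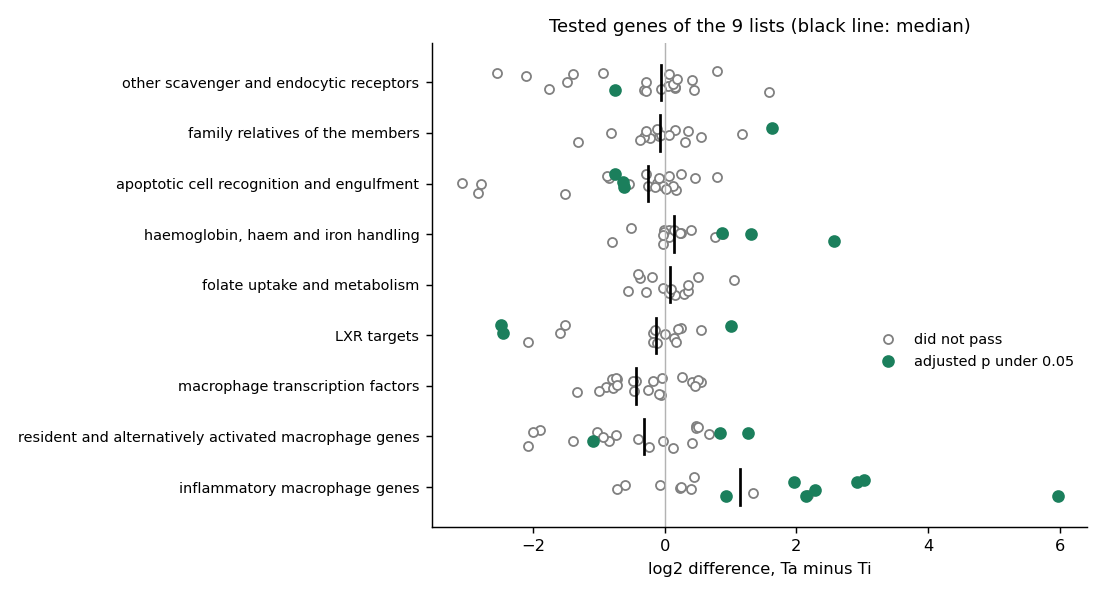
Log2 difference between Ta and Ti for the tested genes of the 9 lists, 1 point a gene, with green points for an adjusted p under 0.05 in limma and a black line at the median. The inflammatory list has its median at 1.14 and its highest point, Nos2, at a fitted 5.97, which is no bound because Nos2 was not detected on Ti.

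The genes whose pattern over the 6 arrays was most like that of Cd5l were sought among 381 named genes that passed the filter and had an SD of at least 1. The highest Pearson correlations were those of Tmem176b and Tmem176a (0.999 each), a pair of neighbouring membrane proteins of myeloid cells, followed by Igfbp6 and Pappa2 (0.998 each), Hdac9 and the Fc receptor gene Fcgr3a (0.997 each). Tmem176b read 10.37, 8.65 and 7.66 on Ta and 12.47, 11.86 and 12.73 on Ti, low on the same arrays as Cd5l. Vsig4 ranked at 139 (0.969) and Cd163 at 247 (0.389). The other members had an SD under 1 or no value in the test and were not ranked. All 6 points come from the same slide and 2 groups, so any gene with a large difference between the groups correlates with Cd5l, and no p is given.

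Markers of other marrow cells were read on the same arrays. Of 15 stromal markers 2 rose (Thy1 and Cxcl12) and 0 fell, with a median of 0.07 and a mean of 12.52 to 12.60 on Ta and 12.44 to 12.49 on Ti. The collagen genes Col1a1 and Col1a2, which are among these stromal markers, read 14.92 to 16.29 over the 6 arrays. Of 10 osteoclast markers on the array 7 were tested, and none passed (0 in limma). Of these, 6 lay below 0, and Mmp9 lay above it at 0.63 ± 0.42. In 5 of the 7 every Ta array lay below every Ti array, as in 16.4% of all genes tested. Their mean was 9.43, 8.80 and 8.40 on Ta and 10.06, 9.25 and 10.24 on Ti. Of 10 neutrophil markers on the array only 4 were tested, and 5 were on no array well above background. Of the 4, S100a8 rose by 2.95 ± 0.50 and Camp by 1.68 ± 0.30. Mpo (1.66 ± 0.34) and Csf3r (-0.88 ± 0.44) did not pass. Of 7 mast cell markers 4 fell and 0 rose (mean 5.01 to 5.34 on Ta and 6.46 to 6.83 on Ti). Among those that fell, Cma1 passed the filter through the Ti arrays alone, so its p-value rests on Ta signals below the floor. Cpa3 was well above background on 1 Ta array, and the other probe of Mcpt8 gave -0.41. Hdc lay above 0 at 0.73 ± 0.16 (0.86 by its other probe) and did not pass. Of 6 T and NK cell markers 1 rose (Cd2), which was on no Ti array well above background. Yet 4 of the 6 lay below 0, and their median was -0.61. The lowest, Cd8a (-2.45 ± 0.63) and Gzmb (-1.78 ± 0.37, well above background on 1 Ta array), did not pass. None passed among 3 B cell, 6 endothelial and 2 erythroid and megakaryocyte markers, and the other 7 of 9 erythroid and megakaryocyte genes on the array did not pass the filter. The part of osteoclasts, mast cells or neutrophils in the values of the 9 genes was not tested.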

How the data were processed

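The deposited scanner files hold spot intensities; per the file headers Agilent Feature Extraction 12.0.3.1 made the processed signal by background subtraction and spatial detrending within an array, and arrays were not scaled to each other. Version 12.0 and limma are named in the submitters' processing notes. The deposited value table equalled these signals.

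Each array's log2 processed signal was brought to a common 75th percentile over its non-control spots, flagged spots were left out and the brightest probe stood for a gene. A probe entered the test when well above background on at least 3 arrays. Ta and Ti were compared with limma 3.58.1 in R 4.3.3 (lmFit and eBayes, two-sided, Benjamini-Hochberg over 19584 genes, threshold 0.05), tested on simulated data. The number of arrays limits the precision. Of the probes, 31230 were named through RefSeq.

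The members and lists were chosen with earlier results of these data known. Besides the 9 genes, the text names up to 3 genes per list with the largest difference among those past the test, 6 macrophage markers and the 6 genes most like Cd5l. Others are named after their values were seen, as are list extremes and single markers. Nothing in the labels says that replicate numbers pair the cultures. Alternatives were other scalings, background correction, filters, probe rules, variance models, blocks for replicate number and slide row, and leaving out arrays.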

Additional observations from a re-analysis of the deposited data

How the results depend on the processing

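The median difference of the 9 genes stayed below 0 in all alternatives run, between -1.73 (without Ta replicate 1) and -0.77 (normexp background correction). The 813 genes, 1 member and 21 list genes that passed became 2595, 4 and 55 with normexp background correction, 2096, 2 and 39 with trend and robust settings, and 10156, 5 and 108 with array weights. They became 0, 0 and 0 with no filter on dim probes (5814 genes at an unadjusted p under 0.05 in limma) and likewise with slide row as a block (3831 unadjusted), a fit that leaves Ti replicate 1 alone against the Ta arrays. With only probes well above background on all 6 arrays 0 members passed, because Cd5l was not tested (3 of 4 members at an unadjusted p under 0.05 in limma). Leaving out single arrays gave 0 to 3213 genes, 0 to 5 members and 0 to 70 list genes. For all other changes the cause was not tested. With the replicate number as a block, 8 genes, 0 members and 1 list gene passed. Deviations of same-numbered arrays from their group means correlated at 0.06, 0.13 and -0.18. With 3 arrays in a group, these values cannot decide whether the cultures were paired. Why fewer genes passed with this block was not tested.

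Adgre1, not called, ran from -0.32 without Ta replicate 1 to 0.17 without Ta replicate 3, where its sign turned. Dim signals limit Cd5l, Vsig4 and Timd4: normexp, whose offset of 50 exceeds several of their signals, gave -1.94, -0.77 and -0.07. The floor gave -3.86, -2.05 and -0.45. For the named genes other than the 9, taken over their alternatives, 312 values kept their direction and side of the threshold, 148 no longer passed, 28 newly passed and 1, that of Adgre1, turned.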

Other observations

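Further genes of the lists, named here after their values were seen, had large negative differences without passing the test over all genes, and had Ta replicate 1 highest and Ta replicate 3 lowest among the Ta arrays. The complement genes C1qa, C1qb and C1qc, made by tissue macrophages, differed by -2.79 ± 0.76, -2.83 ± 0.71 and -3.08 ± 0.77 (log2, limma SE, n = 3 per group, adjusted p = 0.0787, 0.0696 and 0.07). C1qc read 7.34, 5.46 and 4.04 on Ta and 8.56, 8.87 and 8.65 on Ti. Trem2, a lipid receptor of myeloid cells, read 13.51, 12.44 and 11.53 on Ta and 14.52, 14.20 and 14.73 on Ti, a difference of -2.0 ± 0.48 (limma adjusted p = 0.0664). The membrane protein Ms4a4a differed by -1.90 ± 0.54, with -2.08 by its other probe, and the apoptotic cell receptor Mertk by -1.52 ± 0.42, with -1.17 by its other probe (limma adjusted p = 0.085 and 0.0792). Every Ta array lay below every Ti array in these 6 genes, as in 16.4% of all genes tested.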
